A study of Mus musculus with 2 samples.

Results

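Interstitial fibroblasts, chosen here as heart fibroblasts led by transcripts of Col8a1, Nox4, Smoc2, Gsta3 and Rgs17, were described in 2 single-cell RNA sequencing libraries of mouse heart. Members were selected on their own UMI counts (unique molecular identifiers, which count captured mRNA molecules). A cell with at least 200 detected genes was taken as a fibroblast when Pdgfra, Col1a2, Col3a1 and Dcn together had 2 or more UMIs, Ryr2 and Myh6 together were under 0.6% of its UMIs, and F13a1 with Adgre1 and Flt1 with Cdh5 each had at most 1 UMI. It was a member when the sum A of Col8a1, Nox4, Smoc2, Gsta3 and Rgs17 reached 2, exceeded both the sum B of Pi16, Cd55, Efemp1, Scara5 and Adgrd1 and the sum C of Nkain2, Fbn2, Vit, Gpr39 and Acss3, and when Postn, Cilp, Ltbp2 and Meox1 together stayed under 4. This gave 1072 members in the Sham library and 965 in the TAC library, 2037 of 19867 cells in all. Fibroblasts led by B (Pi16 and Cd55 fibroblasts), those led by C (Nkain2, Fbn2 and Vit fibroblasts) and those at or over the limit of 4 (Postn and Cilp fibroblasts) served for comparison.

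Both libraries came from hearts of C57BL/6 mice, with the cells of 3 to 5 hearts pooled per library, and no library was replicated. Transverse aortic constriction (TAC), a narrowing of the aortic arch that loads the left ventricle, was done on male mice at 8 weeks of age and lasted 6 weeks. Sham mice had the same operation without the constriction by their labels, whereas the design text calls the controls uninjured. The study used male mice only, and the age of the Sham mice is not given in their own label. With 1 library per condition no test was possible, so every interval below is a 95% interval for counting error only, and a difference between libraries cannot be told apart from a difference between preparations.

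Cardiac fibroblasts lie between the muscle cells, make and turn over the collagen network of the heart wall, and sense stretch, injury and cytokines. Under pressure load some of them take on an activated, matrix-producing state known for Postn, which encodes periostin, and Cilp. Col8a1 encodes a chain of the short-chain network collagen VIII, Nox4 an NADPH oxidase that releases hydrogen peroxide, Smoc2 a secreted calcium-binding matricellular protein, Gsta3 a glutathione S-transferase and Rgs17 a regulator of G-protein signalling. Pi16 and Cd55 are known from fibroblasts of the adventitia and other loose connective tissue.

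The Sham library held 28146691 UMIs in 9935 cells and the TAC library 29108986 UMIs in 9932 cells. Members had medians of 2409.5 and 2399 UMIs and of 1394 and 1405 detected genes in Sham and TAC. Their summed UMIs, on which each level below rests, were 2811838 and 2508042. Mitochondrial genes took 0.895% and 1.02% of these UMIs, and the nuclear transcript Malat1 took 8.28% and 9.29%. In cardiomyocytes of Sham and TAC mitochondrial genes took 0.229% and 0.134% and Malat1 12.6% and 14.9%. Whether the droplets held whole cells or nuclei was not tested. The libraries had 32 barcode sequences in common, carried by 7 Sham and 1 TAC members, and Scrublet marked 22 Sham members (2.05%) and 25 TAC members (2.59%) as doublets, which were kept.

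The label of fibroblasts was checked with 9 fibroblast genes that the rule did not use. In both libraries 8 of them had a higher level in members than in cardiomyocytes, endothelial cells, macrophages and pericytes. They were Tcf21, Col1a1, Lum, Dpt, Gsn, Mfap4, Ddr2 and Pdgfrl. The 4 other cell types were chosen by their own genes and by a limit on Pdgfra, Col1a2, Col3a1 and Dcn. Part of the difference was therefore set by the choice of cells. A level here is the UMIs of a gene per 1000000 UMIs of the cells of a class. Gsn, which encodes the actin-severing protein gelsolin, was at 1249 in Sham and 2077 in TAC members, against at most 172 and 237 in the 4 other cell types. Tcf21, a transcription factor of the fibroblast lineage, was at 18.8 and 28.7, against at most 3.27 and 6.68. The exception was Lamc3, with 8 and 7 UMIs in all members. Where the members lay in the tissue was not measured, so "interstitial" is a name and not a position.

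Members made up 49.4% of the Sham fibroblasts (1072 of 2171, 47.3 to 51.5) and 44.4% of the TAC fibroblasts (965 of 2173, 42.3 to 46.5). Of all cells with at least 200 detected genes they were 10.8% (10.2 to 11.4) in Sham and 9.72% (9.14 to 10.3) in TAC. Because a sum of UMIs is easier to reach in a deeper cell, cells were also thinned to 1000 UMIs before the rule. Shallower cells, 1758 in Sham and 1207 in TAC, were left out. Members were then 688 of 1532 fibroblasts in Sham and 619 of 1652 in TAC. The share was then 44.9% (42.4 to 47.4) in Sham and 37.5% (35.1 to 39.9) in TAC. The TAC share was lower on both scales and the intervals did not overlap, which covers counting error within 1 pool of hearts each. The share follows from the counts of the rule's own genes, and the median of A was 7 UMIs in Sham and 6 in TAC members. Whether the lower share reflects fewer such cells or lower counts of these genes was not tested. Pi16 and Cd55 fibroblasts were 19.3% in Sham and 23.6% in TAC, Nkain2, Fbn2 and Vit fibroblasts 10.4% in each, and Postn and Cilp fibroblasts 4.01% and 2.72%.

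**Figure D1:**
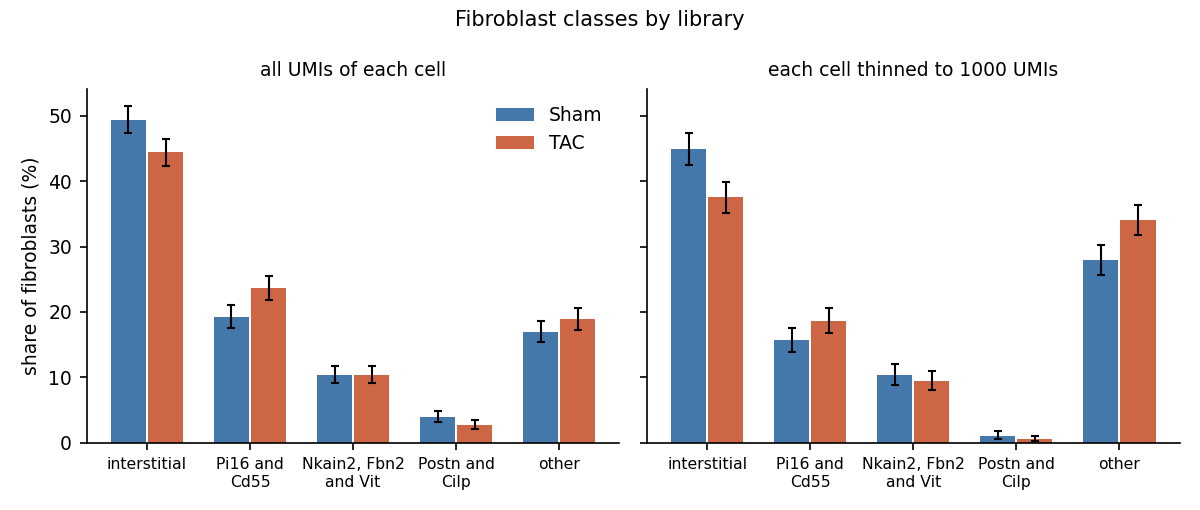
Share of fibroblasts (%) in each fibroblast class, for Sham and TAC, from all UMIs of each cell (left) and after thinning to 1000 UMIs (right). Cells with fewer than 1000 UMIs are left out on the right. Error bars are exact 95% intervals for counting error. Interstitial fibroblasts were the most frequent class in both libraries, at 49.4% and 44.4% on the left and 44.9% and 37.5% on the right.

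The values that chose the members are given as a description. The sum A had a median of 7 UMIs in Sham members and 6 in TAC members and ranged from 2 to 109 and from 2 to 87. Col8a1 supplied 57.3% of these UMIs in Sham and 58.8% in TAC, so the choice rested mainly on collagen VIII. Nox4 supplied 13.5% and 7.67%, Smoc2 13.7% and 16%, Gsta3 6.49% and 9.41%, and Rgs17 8.99% and 8.14%. All 5 genes were seen together in 41 Sham members (3.82%) and 20 TAC members (2.07%), and only 1 of them in 122 (11.4%) and 150 (15.5%). A member was thus most often a cell with 2 or 3 of these transcripts, and rarely one with the whole set.

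Just inside the limit, 68 Sham and 85 TAC members had an A of exactly 2. Their Col8a1 level was 495 and 406, and their level of Itgbl1, an integrin-like secreted protein that the rule did not use, was 920 and 433. Just outside it, 38 Sham and 55 TAC fibroblasts had an A of 1 that still exceeded B and C, with Col8a1 at 320 and 241 and Itgbl1 at 825 and 311. Another 118 Sham and 102 TAC fibroblasts reached an A of 2 or more but tied with B or C, with Col8a1 at 946 and 632 and Pi16 at 409 and 378. At the limit on activation genes, 21 Sham and 18 TAC members had a sum of 3, with Col8a1 at 2876 and 2324. The 17 Sham and 11 TAC cells with a sum of 4, left out, had Col8a1 at 3963 and 3817. Gsta3 in Sham was at 106 with an A of 2 and 16.8 with an A of 1. Kcnip1 in Sham was at 0 with an activation sum of 3 and 479 with a sum of 4. Only 4 of the 87 Sham cells with a sum of 4 or more had a Kcnip1 UMI, and 1 of them held 26, so the level of 479 rests on few cells. The rule's own genes must differ across a limit that they set.

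Col8a1, the leading gene, was at 2092 per 1000000 UMIs in Sham members (2039 to 2146) and 1913 in TAC members (1859 to 1968). It was at 446 and 298 in Pi16 and Cd55 fibroblasts, at 470 and 328 in Nkain2, Fbn2 and Vit fibroblasts, and at 4321 and 5831 in Postn and Cilp fibroblasts. The highest levels of Col8a1 thus lay in the activated cells that the rule leaves out. Nox4 was at 493 in Sham members (467 to 520) and 250 in TAC members (230 to 270), a ratio of 0.506 (0.460 to 0.557). In Postn and Cilp fibroblasts it was at 1457 in Sham and 370 in TAC, a ratio of 0.254 (0.197 to 0.323). Nox4 had its highest level in that class too, and was lower in TAC in each of the 4 fibroblast classes.

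Smoc2 was at 500 and 521 in Sham and TAC members, against 213 to 306 in the 3 other classes. Gsta3 was at 237 and 306, against 56.9 to 141 in the others. Rgs17 was at 328 and 265, while Nkain2, Fbn2 and Vit fibroblasts had 209 and 165 and the remaining classes 37.9 to 68.3. These 3 genes were highest in the members, as the rule makes likely. Pdgfra, the receptor of platelet-derived growth factor that is used to find cardiac fibroblasts, was at 554 and 616 in members and at 479 to 651 in the other classes, so it did not set them apart.

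**Figure D2:**
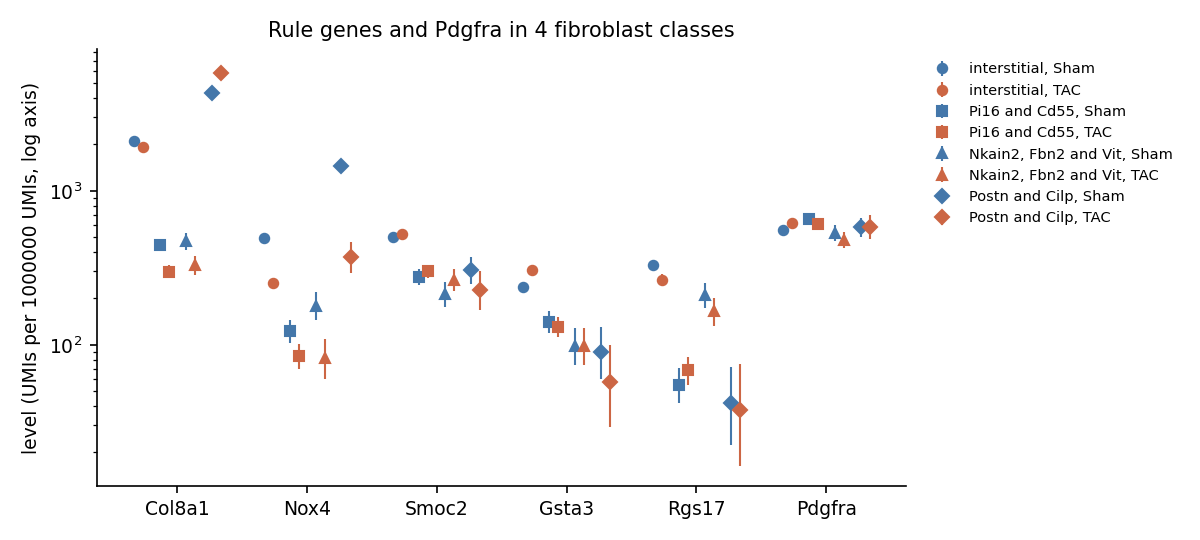
Level of the 5 genes of the sum A and of Pdgfra (UMIs per 1000000 UMIs, log axis) in 4 fibroblast classes of the Sham and TAC libraries; bars are exact Poisson 95% intervals for counting error. Col8a1 and Nox4 were highest in Postn and Cilp fibroblasts, Smoc2, Gsta3 and Rgs17 in interstitial fibroblasts, and Pdgfra lay between 479 and 651 in all.

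When a gene was left out of A and the members were chosen again without it, its level in members was lower. It lay nearer to the levels of Pi16 and Cd55 fibroblasts and of Nkain2, Fbn2 and Vit fibroblasts. Postn and Cilp fibroblasts, which are not chosen by A, kept their levels, so members lay further below them in Col8a1 and Nox4. Col8a1 was then at 1787 in Sham members (1722 to 1854) and 1557 in TAC members (1492 to 1624), against 1246 and 890 in Pi16 and Cd55 fibroblasts, which now took up cells rich in Col8a1. Nox4 was at 410 in Sham members (386 to 435) and 199 in TAC members (181 to 218), against 238 and 130 there and 330 (285 to 380) and 168 (136 to 205) in Nkain2, Fbn2 and Vit fibroblasts, so that the last pair of intervals overlapped in TAC. Gsta3 was at 205 in Sham members (188 to 223) and 180 in Pi16 and Cd55 fibroblasts (157 to 206), which overlapped, and at 248 (227 to 269) and 198 (176 to 222) in TAC, which did not. Smoc2 was at 422 in Sham members (397 to 448) and 409 in Pi16 and Cd55 fibroblasts (375 to 445), and at 413 and 404 in TAC. The Smoc2 intervals of these classes overlapped in both libraries once it was not used to choose them. Rgs17 was at 269 in Sham members and 282 in Nkain2, Fbn2 and Vit fibroblasts, and at 201 and 217 in TAC.

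A Col8a1 UMI was seen in 87.7% of Sham members (85.6 to 89.6) and 83.3% of TAC members (80.8 to 85.6). As a background, cardiomyocytes had 3.88% and 2.6% at medians of 4549 and 4885 UMIs. After thinning to 1000 UMIs, which left out 25 Sham and 12 TAC members, the shares were 73.7% and 65.9% in members against 0.976% and 0.478% in cardiomyocytes, 3.67% and 1.86% in macrophages and 6.03% and 6.33% in endothelial cells. Nox4 was seen in 41.1% of Sham members (38.2 to 44.2) and 26.5% of TAC members (23.8 to 29.4), against 0.873% and 0.319% of cardiomyocytes, and thinning gave 26.2% and 16.3%. Smoc2 was seen in 59.6% and 60.1% and Gsta3 in 35.7% and 39.9%. Fewer members thus had a Nox4 UMI in TAC, while Smoc2 was seen about as often.

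Members differed among themselves in which genes filled A. In Sham 195 members (18.2%, 15.9 to 20.6) had more UMIs of Smoc2 and Gsta3 than of Col8a1 and Nox4, and in TAC 260 did (26.9%, 24.2 to 29.9). Members led by Col8a1 and Nox4 numbered 791 and 598. Between these 2 sets 5453 genes with at least 50 UMIs were compared, and 6 were at least 2-fold lower in the Smoc2 and Gsta3 set of both libraries (0.11%), while 0 were 2-fold higher. Ccn2, a matricellular growth factor and target of YAP and TGF-beta signalling, was at 32.8 against 80.8 in Sham and at 18.8 against 76.5 in TAC. Mfap4, a microfibril protein, was at 22.6 against 66.8 and at 18.8 against 58.6. The other 4 were Grm7, Plekhg5, Lhfpl2 and Adamts3, a procollagen N-propeptidase. Both sets were cut from the members by their own counts, so these values describe them and test nothing.

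Between TAC and Sham members 7969 genes had at least 50 UMIs in one library. Of these 217 (2.72%) were at least 2-fold higher in TAC and 53 (0.665%) at least 2-fold lower, and the median log2 ratio was -0.01. Of the higher genes 128 were also 2-fold higher in Pi16 and Cd55 fibroblasts and 128 in Nkain2, Fbn2 and Vit fibroblasts. In Postn and Cilp fibroblasts 106 were. Of the lower genes 20, 16 and 21 were also 2-fold lower in these classes, in the same order. No minimum of UMIs was set there. Predicted genes with Gm or Rik names made up 128 of the 217. Summed, the predicted genes took 3.73% of the UMIs in Sham members and 4.68% in TAC members, a ratio of 1.25 (1.24 to 1.26), and the same ratio was 1.22 to 1.27 in each of 7 other classes of cells. Without the predicted genes 89 genes were 2-fold higher, a set counted after the data had been seen. Ccl7, Cxcl1 and Mmp3 were among the 12 highest named ratios, and Zbtb16 and Fmo2 among the 12 lowest.

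**Figure D3:**
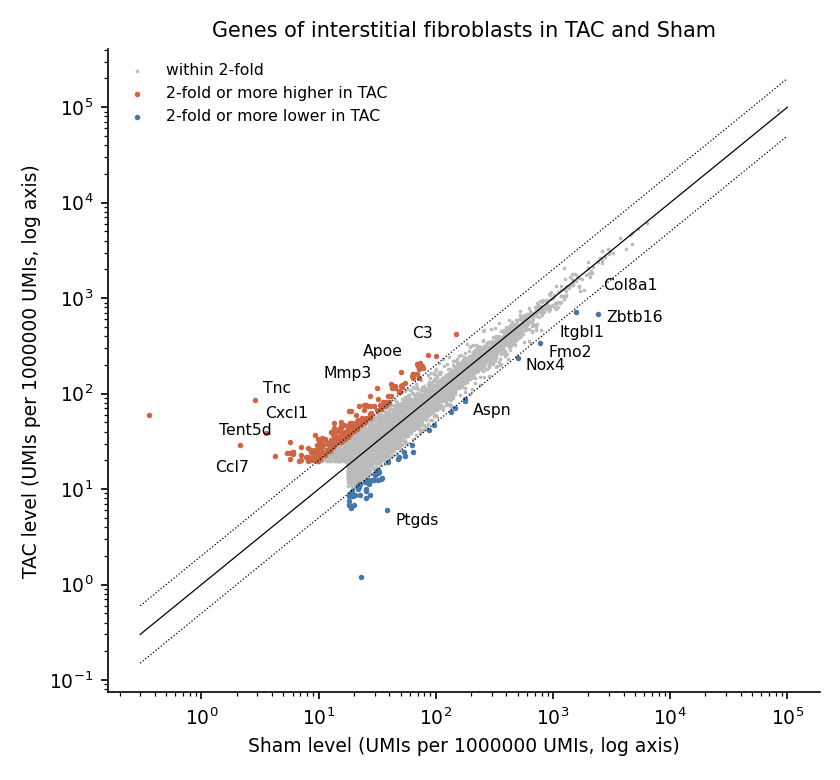
Level of each compared gene in TAC members against Sham members (UMIs per 1000000 UMIs, both axes log); the solid line marks equal levels and the dotted lines 2-fold. The 217 genes above the upper dotted line include Ccl7, Cxcl1, Mmp3, C3 and Apoe, and the 53 below the lower one include Zbtb16, Fmo2, Itgbl1, Aspn and Ptgds.

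Secreted signals of inflammation stood among the highest ratios. Ccl7, a chemokine that draws monocytes, had 6 UMIs in Sham members and 72 in TAC members, a level of 2.13 (0.783 to 4.64) against 28.7 (22.5 to 36.2) and a ratio of 13.5 (5.89 to 37.9), which was 6.94 when members were chosen after thinning. Cxcl1, a chemokine that draws neutrophils, had 26 and 93 UMIs, a level of 9.25 (6.04 to 13.5) against 37.1 (29.9 to 45.4) and a ratio of 4.01 (2.57 to 6.46). Of the 93 UMIs 15 lay in 1 TAC cell. Mmp3, the matrix protease stromelysin-1, had 89 and 286 UMIs, a level of 31.7 (25.4 to 39.0) against 114 (101 to 128) and a ratio of 3.6 (2.83 to 4.62). Few members had a UMI of these genes, which at this depth does not give the share of cells that express them. Ccl7 was seen in 5 Sham and 32 TAC members. Cxcl1 was seen in 2.05% and 4.77% of members, and in 0.573% and 2.1% after thinning, against 0 of 2063 Sham cardiomyocytes, with an exact upper bound of 0.179%, and 0.106% of TAC ones. Mmp3 was seen in 3.17% and 6.11% of members, and in 1.53% and 3.88% after thinning, against 0.194% and 0.638% of cardiomyocytes, and 14.7% of its TAC UMIs lay in 1 cell. In Pi16 and Cd55 fibroblasts Cxcl1 was seen in 0.957% and 2.92% and Mmp3 in 1.91% and 4.09%. In Nkain2, Fbn2 and Vit fibroblasts Cxcl1 was seen in 3.1% and 4% and Mmp3 in 6.19% and 5.33%. In Postn and Cilp fibroblasts Cxcl1 was seen in 3.45% and 3.39% and Mmp3 in 4.6% and 3.39%.

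Ccl2, another monocyte chemokine, had 12 UMIs in Sham members and 56 in TAC members, a ratio of 5.23 (2.77 to 10.7), but 28.6% of the TAC UMIs came from 1 cell, and 14 TAC members had any. With stricter limits on genes of other cells the ratio was 2.56. Of these 4 genes, 2 or more were seen together in 2 Sham members and 18 TAC members. Macrophages had Ccl2 at 11.2 in Sham and 31.7 in TAC and Ccl7 at 9.70 and 27.2, levels close to those of TAC members, whereas Cxcl1 in macrophages was at 2.42 and 3.25 and Mmp3 at 1.45 and 1.22. Cxcl1 and Mmp3 were more than 10 times lower in macrophages than in TAC members. The part of RNA from macrophages in the values of all 4 genes was not tested. The 13 macrophage markers of the list summed to 59.0 in Sham members and 52.6 in TAC members, against 7011 and 7348 in macrophages.

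Promoter sequences of Cxcl1 and Mmp3 are shown because both genes stood among the highest ratios and their promoters are textbook sites of NF-kappaB and AP-1. Each runs from 250 bases before to 50 bases after the start, from RefSeq on GRCm38.p6, and both lie on the plus strand. Capitals mark matches, on either strand, to the NF-kappaB letters (GGG, any 2 bases, TTTCC) or to TGANTCA for AP-1.
Cxcl1, chr5:90890995-90891294: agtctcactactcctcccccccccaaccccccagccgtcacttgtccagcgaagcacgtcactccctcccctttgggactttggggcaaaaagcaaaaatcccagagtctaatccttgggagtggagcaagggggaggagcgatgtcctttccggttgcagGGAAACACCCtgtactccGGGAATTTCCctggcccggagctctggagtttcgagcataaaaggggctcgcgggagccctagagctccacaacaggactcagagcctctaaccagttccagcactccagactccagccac
Mmp3, chr9:7445572-7445871: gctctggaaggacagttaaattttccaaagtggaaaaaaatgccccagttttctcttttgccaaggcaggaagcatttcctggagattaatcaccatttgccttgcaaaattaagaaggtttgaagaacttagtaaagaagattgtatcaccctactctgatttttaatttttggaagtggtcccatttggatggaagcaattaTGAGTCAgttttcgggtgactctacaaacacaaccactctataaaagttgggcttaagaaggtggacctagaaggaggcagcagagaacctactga
The Cxcl1 promoter held the NF-kappaB letters and not those of AP-1, and the Mmp3 promoter those of AP-1 only. Of 32851 promoters of 300 bases, 1.63% held the NF-kappaB letters and 7.81% TGANTCA. The promoters of C3 and Cxcl14 and the 3 listed for Apoe held neither. The motifs were chosen after the ratios had been seen, and a match says nothing about whether a factor was bound. Promoters of Ccl2 and Ccl7 were not used here.

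Among 37 chemokine and cytokine genes, 15 could be compared, and 4 were at least 2-fold higher (Ccl7, Ccl2, Cxcl1 and Cxcl14) and 1 lower (Il34), against 2.72% and 0.665% of all genes. Their median log2 ratio was 0.28. Cxcl14, a chemokine made by stromal cells, was at 18.1 in Sham and 46.6 in TAC members. Il34, a ligand of the CSF1 receptor, was at 18.8 and 9.17. Receptors of the same list varied less, with Il1r1 at 317 and 299 and the oncostatin M receptor Osmr at 352 and 370.

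In the complement list, 1 of 8 compared genes was 2-fold higher and 0 were lower, against 2.72% and 0.665% of all genes. C3, the central component of the cascade, was at 73.3 (63.6 to 84.0) in Sham and 211 (193 to 230) in TAC members, a ratio of 2.88 (2.45 to 3.4), and was seen in 145 and 279 members. No cell held more than 2.84% of its TAC UMIs. The difference in C3 was spread over many cells, and was also found in the other fibroblast classes, with ratios of 2.16, 2.74 and 5.36.

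Immediate-early genes, which respond within minutes to stimuli that include tissue dissociation, had 2 of 11 compared genes 2-fold higher, 0 lower, 9 with a ratio above 1 and a median log2 ratio of 0.40, against 2.72% higher and 0.665% lower among all genes. Nr4a1, an orphan nuclear receptor, was at 14.9 and 40.7 and Junb, an AP-1 subunit, at 38.4 and 77.7. Egr1 was at 43.7 and 57.4 and Klf6 at 61.2 and 51.8. The part of the dissociation in these values was not tested.

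Genes of lipid handling had 3 of 26 higher and 0 lower, with a median log2 ratio of 0.09, against 2.72% and 0.665% of all genes. Apoe, the apolipoprotein of lipid transport, was at 69.3 in Sham and 205 in TAC members, a ratio of 2.96 (2.51 to 3.51). Apoe was at 1010 and 1638 in macrophages, over 3 times the members' level, and the part of free macrophage RNA was not tested. Scd2, a fatty acid desaturase, was at 20.6 and 45.9. Aldh1a1, which makes retinoic acid, was at 720 and 464.

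Activation and matrix genes did not move as one group. Of 27 myofibroblast and activation genes 7 could be compared, with 1 higher, 2 lower and a median log2 ratio of -0.53, against 2.72% and 0.665% of all genes. The 1 higher gene was Tnc, with 74.7% of its TAC UMIs in 1 cell. Itgbl1 was at 1581 (1535 to 1628) in Sham and 723 (690 to 757) in TAC members, a ratio of 0.457 (0.433 to 0.483). Aspn, a small leucine-rich proteoglycan that binds collagen and TGF-beta, was at 177 and 84.1, a ratio of 0.476 (0.403 to 0.560). Fap, a cell surface protease of activated fibroblasts, was at 237 and 272. The rule itself limits Postn in members, where it was at 25.3 and 9.57, so its low level is no finding.

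Tnc, the matricellular protein tenascin-C, had 8 UMIs in Sham members and 217 in TAC members, but 162 of the 217 (74.7%) lay in 1 TAC cell, which also held 117 of the 148 TAC UMIs of the long RNA 8030451A03Rik (79.1%). Without that cell the Tnc ratio was 7.72 (3.66 to 18.8), over the 55 UMIs that remained, and it was 6.23 with stricter limits on genes of other cells. In all, 10 TAC members had a Tnc UMI, so this difference rested on few cells.

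Collagens were close to even. Of the fibrillar collagens 7 of 9 could be compared and 0 passed 2-fold, with a median log2 ratio of 0.15. Col1a1, which encodes the main chain of collagen I, was at 111 and 132 and Col5a2 at 609 and 551. Of the basement membrane and network collagens and laminins 20 of 25 could be compared, 0 passed 2-fold and the summed level was 10522 in Sham and 9425 in TAC, a ratio of 0.896 (0.881 to 0.911). Lama2, the main laminin alpha chain around muscle fibres, was at 4753 and 3662. Collagen processing enzymes had 0 of 15 past 2-fold, with the crosslinking enzyme Loxl1 at 231 and 318, and elastic fibre genes 0 of 13, with fibrillin-1 (Fbn1) at 995 and 1014. Among small leucine-rich proteoglycans 1 of 8 was lower (Aspn) and 0 were higher, against 0.665% and 2.72% of all genes. Bgn, or biglycan, was at 164 and 256 there, and Ecm2 at 260 and 151.

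Of the proteases and inhibitors 2 of 32 were higher and 1 was lower, against 2.72% and 0.665% of all genes. The higher ones were Mmp3 and the lysosomal protease Ctsl (21.7 and 53.0), and the lower one was the secreted Adamtsl2 (145 and 70.6). In TGF-beta and activin signalling the median log2 ratio of 29 compared genes was -0.02 and 0 were 2-fold lower. Smad3, which carries the signal into the nucleus, was at 219 and 322. Of secreted growth factors 2 of 22 were higher and 0 lower, against the same shares of all genes. One was Angpt2, an antagonist of the TIE2 receptor (10.7 and 24.3), and the other Nrg1, a ligand of ERBB receptors, for which 1 TAC cell held 62 of 70 UMIs. The IGF list had 1 of 9 lower, against 0.665% of all genes. It was the glycoprotein hormone Stc2, at 25.3 (19.7 to 31.8) and 7.97 (4.87 to 12.3).

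Redox genes, to which Nox4 belongs, passed 2-fold nowhere. The NADPH oxidase list had 2 compared genes besides Nox4 and 0 past 2-fold, with the GTPase Rac1 at 80.0 and 68.2. Of 17 antioxidant genes 12 had a ratio above 1, and the cystine transporter Slc7a11 was at 58.3 and 96.1. Of 7 glutathione S-transferases 6 had a ratio above 1, with Gstm1 at 49.1 and 71.4 and Mgst1 at 34.1 and 55.0. The median log2 ratio was 0.24 for antioxidant genes and 0.44 for glutathione S-transferases, against -0.01 over all genes.

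Among the genes of high level were several lower ones. Zbtb16, a zinc-finger repressor induced by glucocorticoids, had 6844 UMIs in Sham members and 1717 in TAC members, a level of 2434 (2377 to 2492) against 685 (653 to 718) and a ratio of 0.281 (0.267 to 0.297). It was seen in 95.3% of Sham members and 70.9% of TAC members, and in 84.4% and 44.7% after thinning. Fmo2, a flavin monooxygenase, was at 775 (743 to 809) and 341 (318 to 364), a ratio of 0.439 (0.405 to 0.476). Fkbp5, a glucocorticoid-induced chaperone, was at 620 and 352, a ratio of 0.568 (0.524 to 0.617), short of 2-fold.

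Zbtb16 and Fmo2 were also lower in the other fibroblast classes. The Zbtb16 ratio was 0.269, 0.243 and 0.201 in the other fibroblast classes and 0.170 to 0.428 in macrophages, pericytes, endothelial cells and cardiomyocytes. Fmo2 had ratios of 0.450, 0.423 and 0.347 in the other fibroblast classes. Against 2.72% higher and 0.665% lower among all genes, of 18 compared glucocorticoid-induced genes 1 was lower (Zbtb16) and 1 higher (the transcription factor gene Cebpb, 23.1 and 46.6), 6 had a ratio above 1, and the median log2 ratio was -0.26. Of 16 circadian clock genes 0 passed 2-fold, with Rora at 5348 and 5244 and Arntl, or BMAL1, at 140 and 200. Ptgds, which makes prostaglandin D2, was at 38.1 and 5.98, a ratio of 0.157 (0.085 to 0.271). Its level in cardiomyocytes was 494 and 73.6, a ratio of 0.149, and the part of free cardiomyocyte RNA was not tested.

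The genes with the largest and smallest ratios were a mixed set. Beside Ccl7, Cxcl1 and Mmp3 stood Tent5d, a poly(A) polymerase (5.69 and 31.5), and Htr2b, a serotonin receptor (6.05 and 23.1). Htr2b had a ratio of 3.83 in members and of 2.31 to 6.98 in the 7 other classes. The others were Ndufb2, Lage3, Pkd1l3, B3gat2 and the antisense genes Rsf1os1 and Far1os, with ratios from 2.90 to 3.66. Whether counting used strand was not given, so the reads of an antisense gene and its partner may be mixed. Among the lowest were Stc2 (ratio 0.316), the helicase Helq (0.320) and Pamr1, a secreted protease-like protein (0.381), then Fbxl6, Zfyve28, Epm2a, Zfp146, Tollip, Rfc2, Elac1 and Fmo2 from 0.392 to 0.439. All but Zbtb16 and Fmo2 of these 12 had at most 97 UMIs in Sham members.

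**Figure D4:**
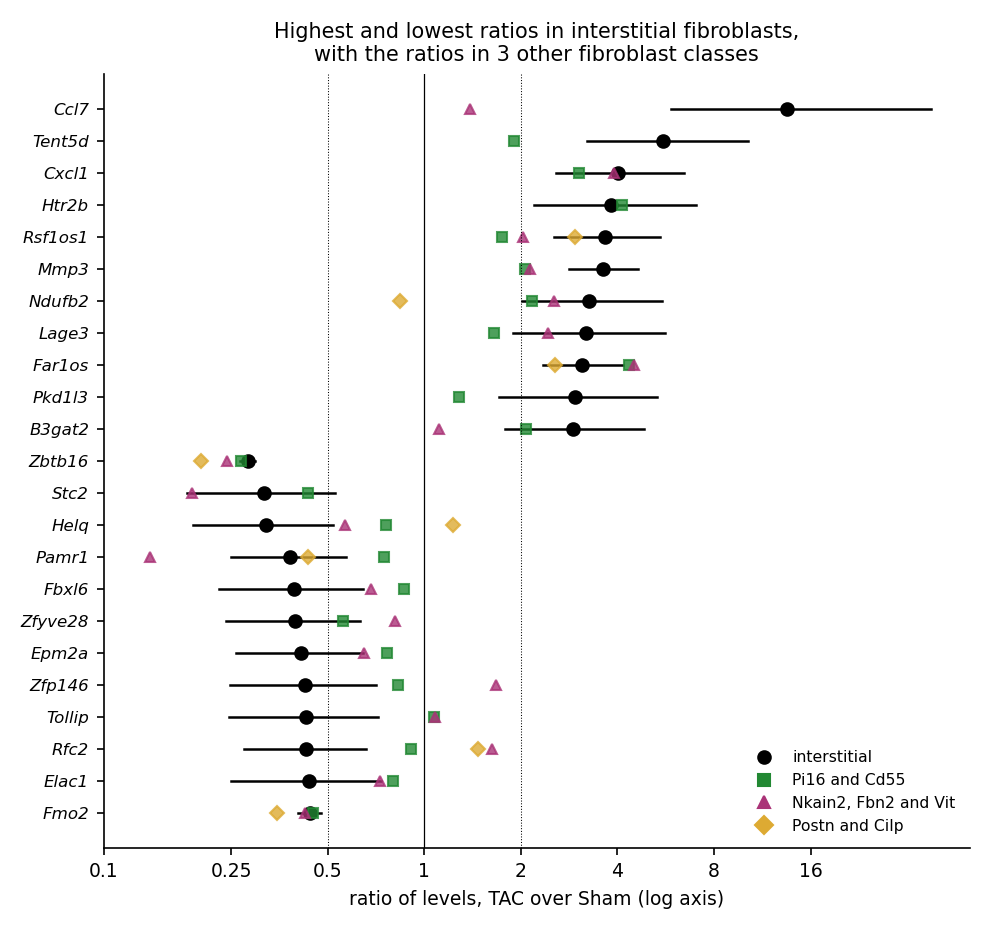
Ratio of levels, TAC over Sham (log axis), of 11 of the 12 highest and the 12 lowest named genes in interstitial fibroblasts (black, with 95% intervals for counting error) and in 3 other fibroblast classes where both libraries had at least 4 UMIs. Zbtb16 and Fmo2 had similar ratios in all 4 classes, at 0.201 to 0.281 and 0.347 to 0.450.

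Genes with over 3 times the members' level in another cell type were set apart, 14 among the 217 and 14 among the 53. Those with the highest ratios were Apoe, the sphingosine-1-phosphate receptor S1pr3 (11.4 and 32.7), Eml5, Ms4a6c and the connexin gene Gja1 (14.6 and 31.1). Those with the lowest were Ptgds, the lipase Pnpla2 (18.1 and 6.78), Coro6, Vldlr and Plscr2. Of the genes named by the study, Tgfb1 was at 25.3 and 39.5 in members, Bcl10 at 14.6 and 14.4 and Malt1 at 26.7 and 30.3, while Card9, Otud1, Il6, Tnf and Cxcr2 had fewer than 20 UMIs. The paper studied these genes mainly under isoproterenol, in heart tissue and peritoneal macrophages. The values here are from another model and cell type.

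Ribosomal protein genes were higher as a group. They took 0.162% of the UMIs of Sham members and 0.234% of those of TAC members, a ratio of 1.44 (1.39 to 1.5), and 62 of 63 compared genes had a ratio above 1. The ratio was 1.36 to 1.80 in the other fibroblast classes, 1.29 in macrophages, 1.31 in pericytes, 1.05 in cardiomyocytes and 0.750 in endothelial cells. The part of RNA quality or of cytoplasmic RNA per cell in the ratios above was not tested.

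Markers of other cell types were present at low level in members. The 15 cardiomyocyte markers summed to 1939 in Sham and 1593 in TAC members, against 62889 and 46516 in cardiomyocytes. The 13 endothelial markers summed to 538 and 550, against 11570 and 11805, of which the receptor gene Tek gave 305 and 265. The 12 pericyte markers summed to 308 and 407, against 11109 and 12048, and 22 members of each library had at least 4 UMIs of Rgs5, Kcnj8 and Abcc9. The 8 smooth muscle markers gave 175 and 184, the 7 Schwann cell markers 184 and 160 and the 10 epicardial markers 2.85 and 1.99, with Upk3b, Upk1b, Krt8, Krt18 and Bnc1 at 0. Of the lymphocyte list Ebf1 alone, also a stromal factor, gave 3237 of 3245 in Sham, and Cd3d was at 0. Cell cycle genes summed to 49.8 and 47.8 with Mki67 at 0. When members with any UMI of the 3 pericyte genes were left out, after the data had been seen, 910 and 786 members remained. The Cxcl1 ratio and that of Mmp3, C3, Zbtb16, Itgbl1 and Nox4 stayed within 1.5 times their values, and that of Ccl7 was 8.55.

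Members were compared with Pi16 and Cd55 fibroblasts within each library, leaving out the rule's 29 genes. Of 6955 genes, 30 (0.431%) were at least 2-fold higher in members in both libraries and 45 (0.647%) at least 2-fold lower. Because the classes were chosen by counts of the same cells, this is a description. Kcnip1, a calcium-binding partner of voltage-gated potassium channels, was at 137 in Sham and 136 in TAC members, against 13 and 13.4, a ratio of 10.5 (6.19 to 19.4) and 10.2 (6.33 to 17.3). It was seen in 13.8% of Sham members and 14.2% of TAC members, against 0.824% and 0.319% of cardiomyocytes. Kcnip1 was not limited to members, since fibroblasts with an A of 0 had it at 96.8 and 75.2. Postn and Cilp fibroblasts had it at 106 and 9.48, but only 4 of their 87 Sham cells had any, and 1 of these held 26 UMIs.

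Thbs1, or thrombospondin-1, an activator of latent TGF-beta, was at 24.5 and 37.5 in members, against 4.65 and 7.42 in Pi16 and Cd55 fibroblasts. Adam12, a membrane metalloprotease of activated mesenchymal cells, was at 33.1 and 39.1 against 7.45 and 11.1, and the matricellular Ccn5 at 74.0 and 52.6 against 25.1 and 11.9. The other named genes on this side were Dchs2, Syn2, Me3 and the glutamate transporter gene Slc1a3, at ratios of 2.35 to 3.09. After thinning the Adam12 ratios were 2.05 and 2.25 and the Kcnip1 ratio in Sham 6.89. On the lower side, the protease gene Dpp4, or CD26, known from adventitial fibroblasts, was at 12.8 and 10.8 against 87.5 and 100, and its TAC ratio of 0.107 was 0.325 after thinning. Sema3c, a secreted guidance cue, was at 31.7 and 39.1 against 171 and 275. Has2, which makes hyaluronan, was at 15.3 and 27.5 against 73.5 and 137, and Gfpt2, which feeds the hexosamine pathway that supplies it, at 255 and 449 against 960 and 1735. The rest were Efhd1, Il1rapl1, Plcxd3 and Arhgef28, at ratios of 0.111 to 0.264. Has2, Gfpt2 and Dpp4 were thus higher in the other class in both libraries.

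Against Nkain2, Fbn2 and Vit fibroblasts 6948 genes were compared, of which 37 (0.533%) were higher and 61 (0.878%) lower in members. Tll2, a tolloid-like protease that processes matrix precursors, was at 41.6 and 93.7 in members against 3.73 and 12.7. Kcnip1 was again higher, by 10.5 (5.04 to 26.3) in Sham and 4.15 (2.59 to 7.09) in TAC, the latter 7.34 after thinning, as was Thbs1. Morrbid, a long RNA known from myeloid cells, was at 702 and 802 against 211 and 223, and Hmcn2, a hemicentin of the matrix, at 585 and 531 against 222 and 127. Syn2, the phospholipase gene Pla1a and the transcription factor gene Bhlhe40 followed.

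Lower in members than in that class were Aox3, an aldehyde oxidase (6.05 and 13.2 against 127 in each library), and Adamtsl1, a secreted ADAMTS-like protein (12.8 and 18.7 against 235 and 180). Vegfd, a growth factor for lymphatic vessels, was at 44.8 and 44.3 against 170 and 192. Rgs6, a relative of Rgs17, was at 285 and 260 against 1061 and 851. The others were Sntg1, the muscarinic receptor gene Chrm3, Pappa and the complement gene C4b, at ratios of 0.077 to 0.290. Chrm3 was also 2-fold higher in TAC than in Sham members, at 44.8 and 114.

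Against Postn and Cilp fibroblasts, a class of 87 Sham and 59 TAC cells, 6941 genes were compared, and 182 (2.62%) were higher and 86 (1.24%) lower in members. Lvrn, an aminopeptidase, was at 457 and 335 against 38.6 and 14.2, and Gfra1, a receptor of GDNF, at 337 and 359 against 45.0 and 14.2. Rgs7 was at 166 and 120 against 22.5 and 14.2. Col6a6, a chain of collagen VI, was at 124 and 155 against 9.65 in Sham and 0 UMIs in TAC, at least 10.9-fold higher at a limit of 3 counts. After thinning, which left few cells in that class, the Col6a6 ratio was 2.4 in Sham and 1.51 in TAC, and that of Lvrn was 26.7 and 3.56, so these sizes are uncertain. With the activation limit at 2 the ratios were 8.09 and 6.64 for Col6a6 and 3.63 and 10.4 for Lvrn. Paip2b, Ankrd6, Ifi205 and H2-K2 were named on the same side, the last being an MHC gene whose reads relatives can share.

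Prg4, or lubricin, was lower in members than in Postn and Cilp fibroblasts, at 25.6 and 41.5 against 129 and 479. Mical2, which oxidises actin, was at 184 and 202 against 795 and 815, and Col14a1, a collagen on fibril surfaces, at 55.8 and 75.0 against 209 and 251. Adamts6 was at 145 and 102 against 486 and 721. Klhl29, Scml4, Tgif1, a repressor of TGF-beta target genes, and Lhfpl2 were at ratios of 0.191 to 0.313. The limit on Postn, Cilp, Ltbp2 and Meox1 divided the cells of this comparison, so the difference between the classes was set by the rule in part.

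**Figure D5:**
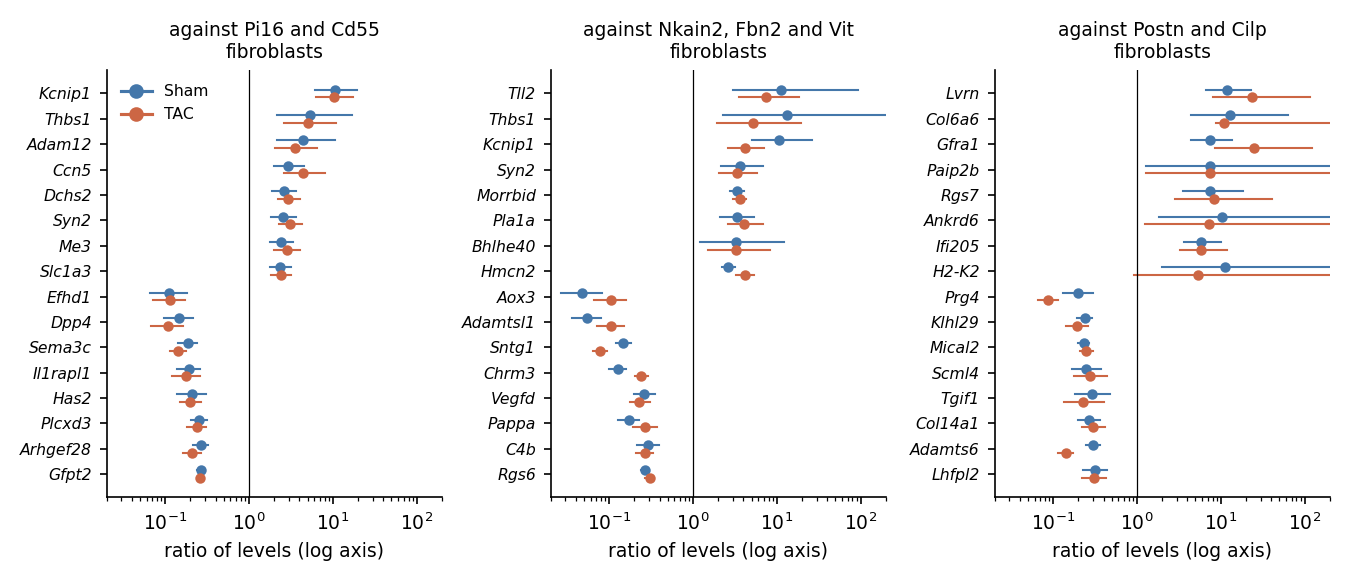
Ratio of the level in interstitial fibroblasts to that in each other fibroblast class (log axis), for the 8 highest and 8 lowest named genes in Sham and TAC; lines are 95% intervals for counting error, drawn to 200 at most. Both libraries lie on the same side of 1 for each gene, as the choice of genes requires, with Kcnip1 at 10.5 and 10.2 and Dpp4 at 0.146 and 0.107 against Pi16 and Cd55 fibroblasts.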

How the data were processed

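Material of pooled mouse hearts, which the paper describes as single cells, was measured by droplet RNA sequencing, in 1 Sham and 1 TAC library. The authors deposited filtered matrices of UMI counts per gene and cell, made with Cell Ranger 7.1.0 per the submitters' processing notes and the file headers. The labels and the paper name different versions of the kit and of Cell Ranger. The genome build, the counting of introns and strand, and the filter on barcodes are not given in the sources used here. Every deposited cell had at least 500 UMIs.

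Members were chosen by the limits given in the report. Members and gene lists were chosen with earlier results of these data known. UMIs were summed over the cells of a class in each library and divided by the class's UMIs to give levels per 1000000. Genes that reached 50 UMIs in either library were compared, and a gene was called at 2-fold. Intervals at 95% were exact Poisson for levels, exact Clopper-Pearson for shares and exact conditional binomial for ratios, and cover counting error only. A count of 0 was set to a limit of 3 counts. With 1 library per condition no test was run.

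Genes were named by a fixed rule. The 12 highest and 12 lowest ratios between TAC and Sham were named, and the 8 highest and 8 lowest against each other class by the smaller of both libraries' folds. Rule genes, mitochondrial, hemoglobin, ribosomal protein and predicted genes were left out, as were genes with over 20% of their UMIs in 1 cell or with over 3 times the level in another cell type, of which 5 per direction were named apart. Genes of the lists past 2-fold, up to 4 of high level per list and genes that the study names were added. Grm7, Plekhg5, Lhfpl2, Adamts3, Mfap4 and Ccn2 in the comparison among members, Tek, Ebf1, and the promoters shown were chosen after the values were seen. A few genes that the rule names are not reported here.

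Doublets were marked with Scrublet in scanpy 1.11.5 and removed only in an alternative. Other alternatives changed the limits of the rule, the thinning depth, the minimum of UMIs and the scaling. The computation was tested on simulated data with known ratios. Python 3.11.15, numpy 2.4.6, scipy 1.17.1, pandas 2.3.3 and matplotlib 3.10.9 were used.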

Additional observations from a re-analysis of the deposited data

Results flagged for a closer look

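For 3 genes with a higher level in TAC members, another fibroblast class had the opposite direction, and the difference between the classes was not tested. Mmp3 had a ratio of TAC over Sham of 3.6 in interstitial fibroblasts and of 0.164 (0.0184 to 0.684) in Postn and Cilp fibroblasts, from 18 and 2 UMIs. Of these 18 Sham UMIs 15 lay in 1 cell, so the lower Mmp3 ratio rests on that cell. Ccl2 had a ratio of 5.23 in interstitial fibroblasts and of 0.113 (0.00267 to 0.755) in Postn and Cilp fibroblasts, from 13 and 1 UMIs. Tnc had a ratio of 30.4 in interstitial fibroblasts, 7.72 without the cell that held most of its UMIs, and of 0.195 (0.0207 to 0.913) in Nkain2, Fbn2 and Vit fibroblasts, from 10 and 2 UMIs. The opposite directions rest on at most 18 UMIs per class and library.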

How the results depend on the processing

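No paired analysis was possible because there was 1 library per condition. Over 10 main results and 16 alternatives, 119 values stayed within the limits set and 27 moved. These results were shares and counts of genes, for which no reversal was defined. Over 70 named ratios and 13 alternatives, 860 stayed within 1.5 times, 31 moved further and 0 reversed. The member share of fibroblasts was 46.2% in Sham and 40.5% in TAC with sums of at least 3, 44.9% and 37.5% after thinning, and 46.4% in Sham with an activation sum under 2. After thinning, 17 genes were higher and 22 lower than in Pi16 and Cd55 fibroblasts, 31 lower than in Nkain2, Fbn2 and Vit fibroblasts, and 149 lower than in Postn and Cilp fibroblasts. With an activation sum under 2, 73 genes were higher and 56 lower than in Postn and Cilp fibroblasts.

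With a minimum of 20 UMIs, 530 genes were higher and 185 lower in TAC, 57 and 81 against Pi16 and Cd55 fibroblasts, 109 and 133 against Nkain2, Fbn2 and Vit fibroblasts, and 289 and 146 against Postn and Cilp fibroblasts. With a minimum of 100 UMIs, 107 were higher and 18 lower in TAC, 25 lower against Pi16 and Cd55 fibroblasts, 21 higher and 34 lower against Nkain2, Fbn2 and Vit fibroblasts, and 101 higher and 35 lower against Postn and Cilp fibroblasts. With predicted genes left out, 89 were higher in TAC. The counts thus depend on the minimum of UMIs. The alternatives without pericyte UMIs, without the TAC cell rich in Tnc and without predicted genes, and those for Postn and Cilp fibroblasts, were chosen after seeing the data. Apart from the minimum and the predicted genes, the cause of these moves was not tested. At this depth a ratio from fewer than 100 UMIs had an interval several times wide, and the spread between animals was not measured.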

Other observations

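Genes known from fibroblasts at large stayed within 2-fold. Of 17 compared fibroblast identity genes 0 passed 2-fold between Sham and TAC members, with a median log2 ratio of 0.25. Abca8a, an ABC transporter, was at 3044 per 1000000 UMIs in Sham and 3112 in TAC members. Of 38 fibroblast transcription factors 1 was 2-fold higher and 0 were lower. Aebp1, which encodes the collagen-binding protein ACLP, was at 48.4 and 104, a ratio of 2.14 (1.74 to 2.66), whereas Nfia was at 2789 and 2705 and Zeb1 at 2427 and 2368. Of 12 SMOC, SPARC and other matricellular genes 1 was higher, Tnc, and Sparc, a collagen-binding protein, was at 124 and 202. The 2 compared fibril-associated collagens did not pass 2-fold, with Col14a1 at 55.8 and 75.0.

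Of 13 compared genes of PDGF and FGF signalling 0 passed 2-fold. Fgfr2, a receptor of fibroblast growth factors, was at 256 and 460, a ratio of 1.79 (1.63 to 1.97), while Fgfr1 was at 373 and 352. Of 13 WNT genes 0 passed 2-fold, with the receptor gene Ror1 at 979 and 858, and of 5 angiotensin and endothelin genes 0 did, with the mineralocorticoid receptor gene Nr3c2 at 308 and 285. Of 5 RGS genes 0 passed, and of 26 adhesion genes 0, with Tenm3 at 1178 and 1224. Of 26 ion channels and transporters 1 was higher, Gja1, and Scn7a, a sodium channel gene, was at 1067 and 773. Igf2r, the receptor that clears IGF2, was at 346 and 548. These counts can be set beside the 2.72% higher and 0.665% lower among all genes compared.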
